A study of Homo sapiens with 10 samples.

Results

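The genes of the tripartite motif (TRIM) family were followed in cultured human oesophageal squamous cell carcinoma (ESCC) cells after interferon beta (IFN-β) and after knockdown of the long non-coding RNA IRF1-AS. A member was any gene whose symbol was TRIM followed by a number, with or without a final L, outside the long non-coding part of the tables. This gave 67 of 36546 genes in the IFN-β tables and 67 of 22554 genes in the knockdown tables, where rows of the same name were summed. Both experiments listed 65 members, TRIM49L and TRIM53 appeared in the IFN-β tables only, and TRIM51 and TRIM73 in the knockdown tables only. TRIM22, TRIM21, TRIM5, TRIM14 and TRIM25 were set against the other 62 members. These 5 were singled out with their response already known, so the contrast between them and the rest is a description.

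Bulk RNA sequencing covered 10 libraries in 4 groups, and each library was 1 cell line in 1 arm. Cells of KYSE30, KYSE180 and KYSE450 received IFN-β at 1000 IU/ml for 72 h, and their untreated counterparts received saline buffer for the same time, which gave 3 libraries per arm. KYSE30 and KYSE180 were also infected with lentivirus carrying the IRF1-AS knockdown construct or with vector control virus, both packaged in HEK293T cells, which gave 2 libraries per arm. All groups were established ESCC lines grown under the same conditions, and the replicate is the line. The line was a block in the fit, so p-values weigh the change within lines against a spread. That spread combines how far the gene's own change varied between lines with a value shared across genes. In the knockdown fit, with 2 lines, the shared value outweighed the gene's own.

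TRIM proteins carry, from the amino end, a RING domain that transfers ubiquitin, 1 or more B-boxes and a coiled coil, followed by a variable end that selects the target. In the largest subfamily that end is a PRY-SPRY domain, and several of its members bind viral capsids, antibodies or signalling proteins. Type I interferon acts through the ISGF3 complex, which binds interferon-stimulated response elements, and a subset of TRIM genes is known to be switched on this way.

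The deposited values were FPKM (fragments per kilobase of transcript, scaled to the size of the library), which hold no read counts, so the depth behind a single value is unknown and no counting interval is given. Genes entered the test from 1 FPKM in 3 or more of the 6 IFN-β libraries, or in 2 or more of the 4 knockdown libraries. Of 10 interferon response genes, 6 rose after IFN-β by limma, among them ISG15, IFIT1, IFIT3, OAS2 and IRF1. OAS2, at 0.22 to 0.78 FPKM in untreated cells, passed the filter only through its treated libraries and so had to differ. The summed level of 8 squamous epithelial markers was 331 to 5360 FPKM in treated cells and 323 to 6515 FPKM in untreated cells, with KYSE30 at the low end, and all 8 leukocyte markers were under 1 FPKM in every library. In KYSE450 the median log2 ratio of all genes was 0.41 as deposited, so values were rescaled by median-of-ratios factors before testing. Levels printed here are FPKM as deposited. Fold changes are on the log2(rescaled FPKM + 1) scale, which understates the change of genes with low values.

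After IFN-β, TRIM22, TRIM21 and TRIM5 rose and no member fell. Of the 67 members, 37 passed the filter, 25 stayed under 1 FPKM in every library and the other 5 reached it in 1 or 2 libraries. The count of 3 called higher among 37 is 8.11%, against 0.402% of all 12429 genes tested, and no gene of the whole table was called lower (0%). At an unadjusted p under 0.05 there were 11 of the 37, against 9.81% of all genes. A member that passes the filter only through its treated libraries, as TRIM22 did, had to differ between the arms. All 5 of the contrasted members lay higher in treated than in untreated cells in each of the 3 lines. Their median log2 fold change was 1.63, against -0.02 for the 32 other members tested and -0.01 for all genes.

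TRIM22, which restricts the replication of several viruses, was close to absent before treatment. It had 61.05, 52.9 and 79.48 FPKM in IFN-β-treated KYSE30, KYSE180 and KYSE450 cells, against 0.3, 0.05 and 0.08 FPKM in untreated cells. The arms were far apart, and the treated levels of the 3 lines were similar to each other. The mean was 64.5 ± 13.6 FPKM in treated cells and 0.143 ± 0.137 FPKM in untreated cells (SD, n = 3 each). The fitted log2 fold change was 5.74 ± 0.14 (SE), with an adjusted p of 6.29e-05 by limma. TRIM22 was the 4th, 4th and 2nd most abundant member in treated KYSE30, KYSE180 and KYSE450 cells, and ranked 41, 47 and 43 in untreated cells.

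TRIM21 encodes the cytosolic antibody receptor, which sends antibody-coated viruses to the proteasome. Its level was 31.94, 29.7 and 49.8 FPKM in treated KYSE30, KYSE180 and KYSE450 cells and 4.92, 11.54 and 7.29 FPKM in untreated cells. Every treated value lay above every untreated one, and KYSE180 had the highest untreated level. The log2 fold change was 1.98 ± 0.23 (SE; adjusted p = 0.0476 by limma).

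TRIM5 encodes the factor that recognises incoming retroviral capsids. Its level was 17.49, 39.39 and 44.96 FPKM in treated KYSE30, KYSE180 and KYSE450 cells, against 8.02, 9.5 and 8.65 FPKM in untreated cells. The untreated lines were nearly level with each other, while treated KYSE30 reached less than the other treated lines. The log2 fold change was 1.60 ± 0.20 (SE; adjusted p = 0.0465 by limma).

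TRIM14 lacks a RING domain and works as an adaptor of the mitochondrial antiviral protein MAVS. It had 35.84, 11.9 and 19.88 FPKM in treated KYSE30, KYSE180 and KYSE450 cells and 5.86, 6.37 and 3.96 FPKM in untreated cells. The arms did not overlap, and KYSE180 had the lowest treated value. The log2 fold change of 1.63 ± 0.31 (SE) did not pass the threshold (adjusted p = 0.207 by limma).

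TRIM25, a ligase for the RNA sensor RIG-I and a cofactor of the antiviral protein ZAP, had 39.61, 19.43 and 54.61 FPKM in treated KYSE30, KYSE180 and KYSE450 cells. Untreated cells had 13.07, 15.27 and 10.81 FPKM. The arms did not overlap, but in KYSE180 the treated value lay only a little above the untreated one. The log2 ratios by line were 1.54, 0.35 and 1.76, and the fitted change of 1.22 ± 0.29 (SE) did not pass the threshold (adjusted p = 0.353 by limma).

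**Figure D1:**
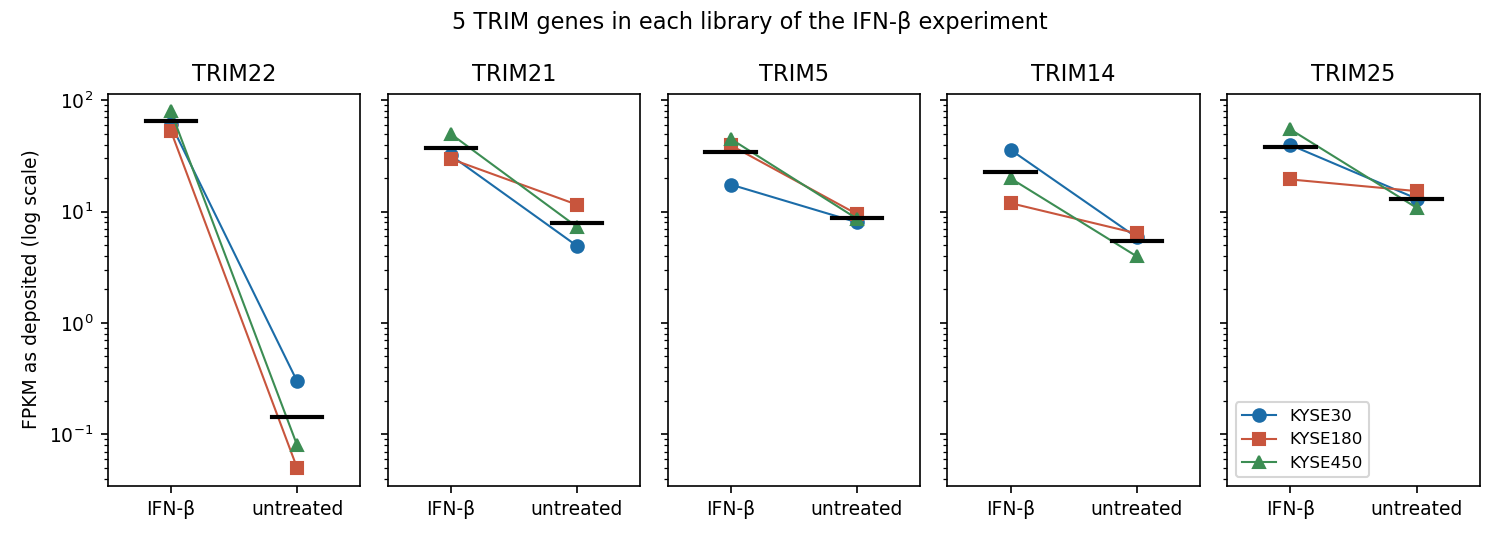
FPKM as deposited (log axis) of the 5 contrasted TRIM genes in each library. Each line joins the IFN-β-treated and the untreated library of 1 cell line, and black bars are the means of 3 lines. TRIM22 spans the widest range, at 52.9 to 79.48 FPKM in treated cells and 0.05 to 0.3 FPKM in untreated cells, and TRIM25 in KYSE180 has the flattest line.

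The calls for TRIM21 and TRIM5 lay close to the threshold and depended on the lines. Without KYSE450 both lost the call (adjusted p = 0.314 for TRIM21 and 0.272 for TRIM5 by limma), and without KYSE180 TRIM5 lost it (0.126) while TRIM14, TRIM25 and TRIM38 gained it (0.0438, 0.0103 and 0.0394). Over all alternatives the adjusted p ranged up to 0.324 for TRIM21 and 0.690 for TRIM5, and TRIM22 was called in each of the 10. In the values as deposited, which keep the shift of KYSE450, all 5 as well as TRIM34 and TRIM38 were called, 7 members in all, against 1.55% of all genes called higher.

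Within single lines, members were counted as different at 2-fold or more in rescaled FPKM, with an average of at least 1 FPKM. In KYSE30 7 of 38 members were higher in treated than in untreated cells (18.4%, against 2.21% of all genes), in KYSE180 3 of 38 (7.89%, against 3.81%) and in KYSE450 8 of 38 (21.1%, against 3.63%). TRIM22, TRIM21 and TRIM5 were in each count. TRIM14, TRIM25, TRIM34 and TRIM38 were counted in KYSE30 and KYSE450 but not in KYSE180, and TRIM56 in KYSE450. The only member counted as lower was TRIM2 in KYSE180, where 5% of all genes were lower (1.01% in KYSE30 and 2.95% in KYSE450). These counts rest on 1 library per arm and carry no test, and whether the lines differed in their response was not tested.

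**Figure D2:**
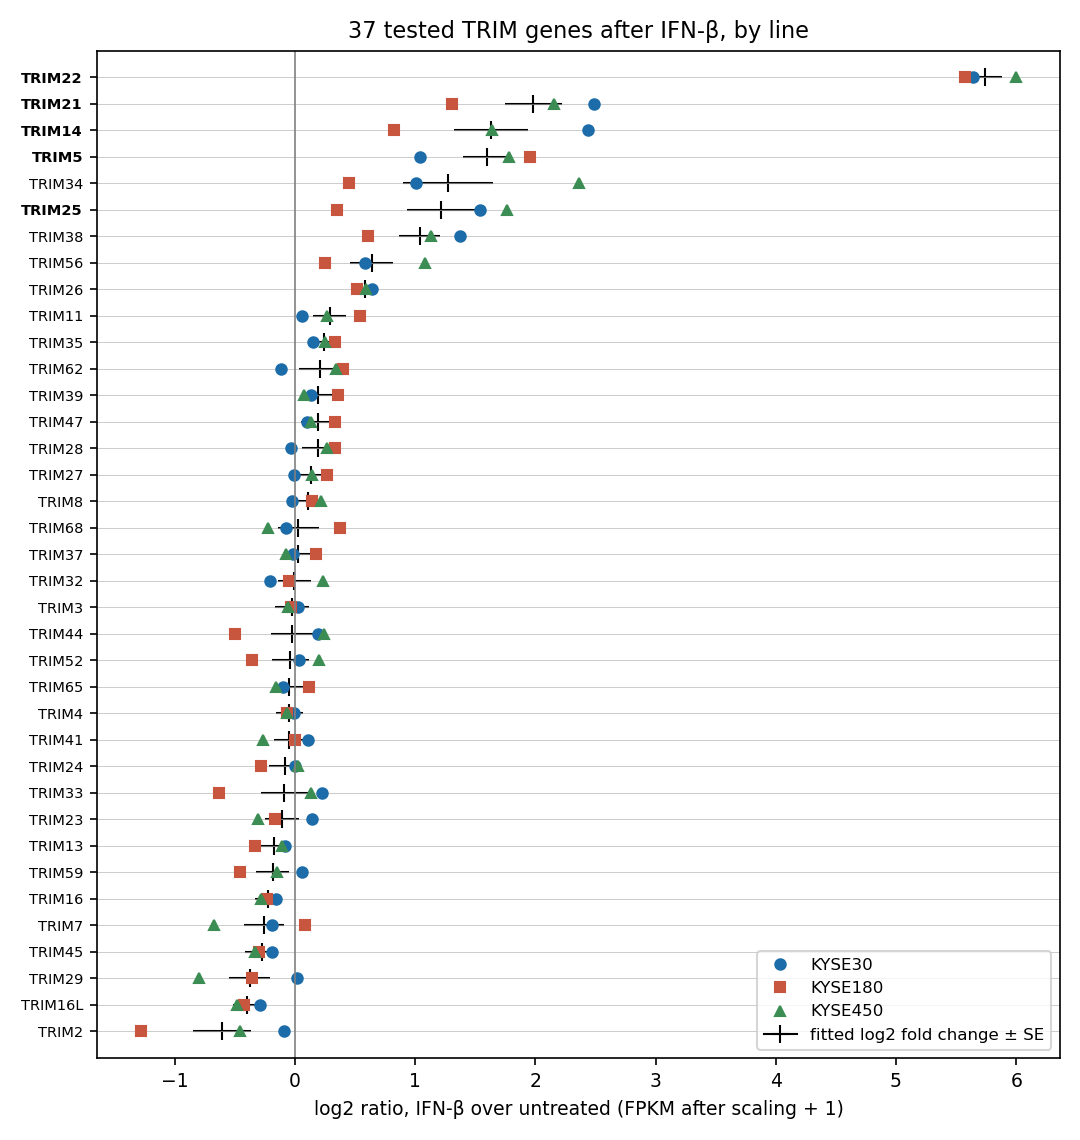
Log2 ratio of IFN-β over untreated, in rescaled FPKM + 1, for the 37 TRIM genes tested, with 1 symbol per cell line and the fitted log2 fold change ± SE in black. The contrasted members are in bold. The 5 and TRIM34, TRIM38, TRIM56 and TRIM26 lie at the top with all 3 lines above 0, and most other genes lie within 0.5 of 0.

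Promoter windows of TRIM members were read for the element that ISGF3 binds. It is the sequence through which IFN-β is known to act. RefSeq promoter windows (GRCh38.p14) were matched by symbol for 50 of the 67 members, among them 25 of the tested members and 4 of the 5. The motif searched, called ISRE-type here, was GAAA, then 2 bases of any kind, then GAAA, on either strand in the 250 bases before the gene start. The windows of TRIM14 and TRIM5 hold a match 26 to 17 and 27 to 18 bases before the start. In TRIM21 a pair of overlapping matches lies 18 to 33 bases after the start. The match in TRIM34 lies 90 to 81 bases, and a pair of overlapping matches in TRIM26 lies 194 to 179 bases, before the start. TRIM14, TRIM34 and TRIM26 were higher after treatment in every line but did not pass the threshold. Of the called members, TRIM5 holds a match before the start, TRIM21 only after it, and TRIM22 has no window. TRIM16 and TRIM2, which were lower in all 3 lines after rescaling, hold a match 80 to 71 and 217 to 208 bases before the start and are shown for contrast. The motif is in capitals, written 5′ to 3′ along the gene's own strand; where it lies on the opposite strand it reads TTTC, 2 bases and TTTC.
TRIM14, chr9:98119229-98119258, minus strand: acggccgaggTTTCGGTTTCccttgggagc
TRIM5, chr11:5685082-5685111, minus strand: atagtttatcTTTCACTTTCctgccctgag
TRIM21, chr11:4393663-4393692, minus strand: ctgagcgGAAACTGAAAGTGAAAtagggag
TRIM34, chr11:5624901-5624930, plus strand: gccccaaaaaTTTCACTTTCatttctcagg
TRIM26, chr6:30213578-30213607, minus strand: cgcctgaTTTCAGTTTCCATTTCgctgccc
TRIM16, chr17:15683012-15683041, minus strand: acagaggtaaGAAATAGAAAtaaagggtcc
TRIM2, chr4:153151936-153151965, plus strand: aataaatagaGAAAAGGAAAtaagccgaag

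An ISRE-type match before the start was present in 7 of the 25 tested members with a window (28.0%), in 2 of 4 contrasted members and in 5 of the 21 others (23.8%). Among all 53 TRIM symbols with a window, tested or not and listed here or not, 8 held it (15.1%). Of all 27305 genes with a window, whatever their expression, 3.71% hold it. A gene with several windows counted once, if any of them matched. With the 50 bases after the start included, the count was 8 of 25 and TRIM21 was added, against 4.38% of all genes with a window. The 7th member with a match was TRIM44, whose log2 ratio was -0.50 in KYSE180, against 0.19 in KYSE30 and 0.24 in KYSE450. TRIM25, TRIM38 and TRIM56, each higher in treated cells in all 3 lines, have no such match in their windows. The motif TTCNNNGAA, the core of the interferon gamma-activated site, was present before the start of 4 of the 25 members (16.0%). These were TRIM16, TRIM2, TRIM3 and TRIM7, and none of the 4 contrasted ones held it. The share was 17.0% of the 53 TRIM symbols with a window, tested or not, and 8.09% of all genes with a window. No match to the first motif overlapped one to the second in these windows. A match describes letters and shows neither binding nor use.

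Beyond the 5, 8 other members have known antiviral or interferon-linked roles, and none of the 5 of them that were tested passed the threshold. TRIM34, a neighbour of TRIM5 that also binds retroviral capsids, had 11.89, 7.46 and 12.45 FPKM in treated KYSE30, KYSE180 and KYSE450 cells and 5.44, 5.26 and 1.06 FPKM in untreated cells. The arms did not overlap, and the log2 fold change was 1.27 ± 0.37 (SE; adjusted p = 0.451 by limma). The annotated read-through transcript TRIM6-TRIM34 shares 2233 of the 2690 exon bases of TRIM34. Its own row held at most 0.44 FPKM.

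TRIM38, a negative regulator of inflammatory signalling, had 46.48, 22.31 and 6.06 FPKM in treated cells, against 17.4, 14.56 and 1.51 FPKM in untreated cells of the same lines. It was higher after treatment in each line, but the arms overlapped because KYSE450 had low levels in both. The log2 fold change was 1.04 ± 0.17 (SE; adjusted p = 0.125 by limma). TRIM26, a ligase for IRF3, had 35.17, 27.81 and 26.99 FPKM in treated KYSE30, KYSE180 and KYSE450 cells and 22.26, 19.49 and 12.4 FPKM in untreated cells. The log2 ratios of TRIM26 by line lay close together, at 0.64, 0.51 and 0.59, and the fitted change was 0.58 ± 0.11 (SE; adjusted p = 0.165 by limma).

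TRIM56, which takes part in signalling from double-stranded RNA and DNA, had 11.42, 16.38 and 10.49 FPKM in treated KYSE30, KYSE180 and KYSE450 cells. Untreated cells had 7.33, 13.87 and 3.07 FPKM, so the arms overlapped although each line was higher when treated. The log2 fold change was 0.64 ± 0.18 (SE; adjusted p = 0.413 by limma). TRIM8, a regulator of NF-kB signalling, had a log2 fold change of 0.11 ± 0.13 (SE; adjusted p = 0.781 by limma). TRIM6, a ligase that builds free ubiquitin chains for IKBKE, was listed at 5, 0.55 and 0.13 FPKM in treated and 4.19, 0.28 and 0.04 FPKM in untreated KYSE30, KYSE180 and KYSE450 cells. TRIM69 stayed at 0.25 to 0.47 FPKM in treated and 0.09 to 0.27 FPKM in untreated cells, and TRIM31 at 0 to 0.07 FPKM in treated and 0 to 0.05 FPKM in untreated cells. These last 3 did not pass the filter.

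Several of these genes are neighbours. On the short arm of chromosome 11 (GRCh38, GENCODE 29), TRIM6, TRIM34, TRIM5 and TRIM22 lie side by side and span 141 kilobases between the start of TRIM6 and the end of TRIM22. TRIM22, on the plus strand at chr11:5689689-5737089, lies inside the annotated span of TRIM5, which is on the minus strand, but the annotated exons of TRIM5 and TRIM22 share no base. Along this stretch the log2 ratios in KYSE30, KYSE180 and KYSE450 were 0.21, 0.27 and 0.09 for TRIM6, 1.01, 0.45 and 2.36 for TRIM34, 1.04, 1.96 and 1.78 for TRIM5, and 5.64, 5.57 and 5.998 for TRIM22. In KYSE180 and KYSE450, TRIM6 was under 1 FPKM in both arms, so the added 1 holds its ratios there near 0. Elsewhere on this arm, TRIM21 rose, and TRIM68, TRIM3 and TRIM44 had log2 fold changes of 0.03, -0.02 and -0.02. The direction of TRIM68 turned without KYSE180, and those of TRIM3 and TRIM44 turned in the values as deposited.

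On the short arm of chromosome 6, 8 members lie in and near the major histocompatibility complex. TRIM38 and TRIM26 were higher after treatment in every line, and TRIM39, at 5.22, 9.56 and 5.62 FPKM in treated and 4.68, 7.33 and 3.74 FPKM in untreated cells, had a log2 fold change of 0.19 ± 0.13 (SE; adjusted p = 0.648 by limma). TRIM27, a nuclear ligase, had 0.14 ± 0.11 (SE). TRIM31, TRIM40, TRIM10 and TRIM15 did not pass the filter, and TRIM40 and TRIM10 were listed at 0 in every library.

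**Figure D3:**
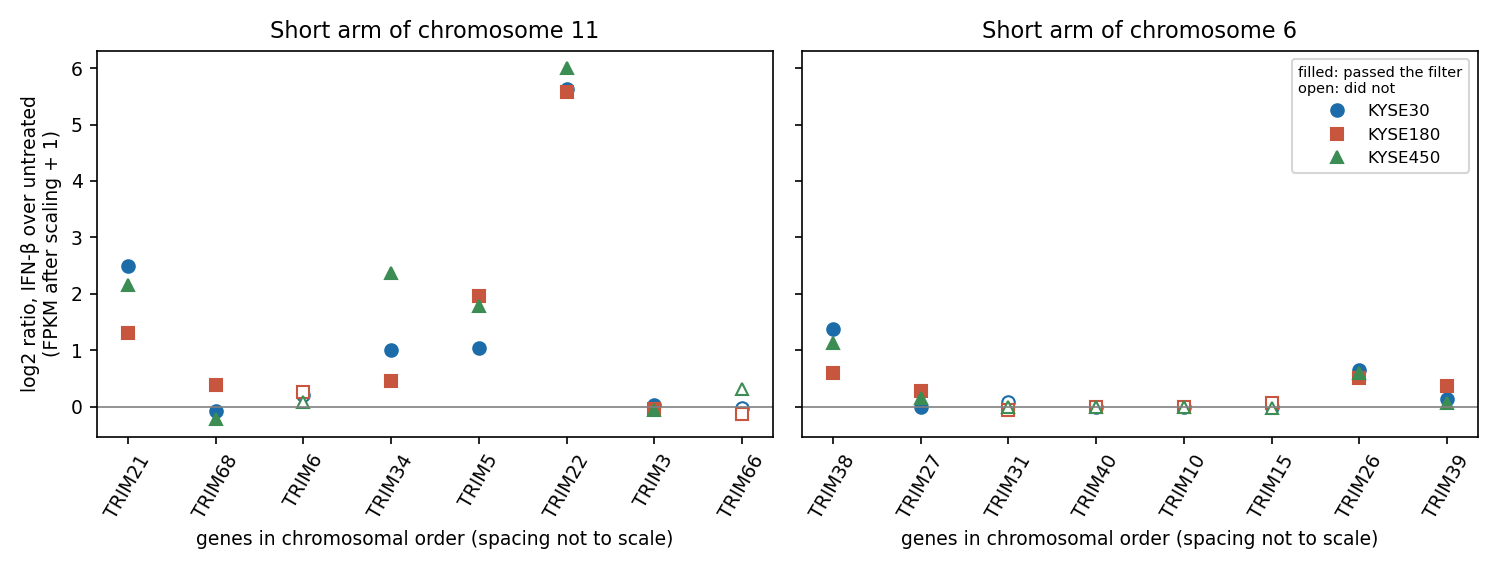
Log2 ratio of IFN-β over untreated, in rescaled FPKM + 1, for TRIM genes of the short arms of chromosomes 11 and 6 in their chromosomal order, with 1 symbol per cell line. Open symbols mark genes that did not pass the filter. TRIM44, also on the short arm of chromosome 11, is not drawn. TRIM22, at 5.57 to 5.998, stands beside TRIM5 at 1.04 to 1.96, while TRIM6, TRIM68 and TRIM3 lie near 0. TRIM6 was under 1 FPKM in both arms of KYSE180 and KYSE450, where the added 1 holds its ratio near 0.

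Outside the interferon-linked group no member passed the test. Among the 32 tested members other than the 5, log2 ratios ran between -0.29 and 1.37 in KYSE30, -1.28 and 0.60 in KYSE180 and -0.80 and 2.36 in KYSE450. In FPKM as deposited, which keep the shift of KYSE450, treated values all lay above untreated values for 8 of the 37 tested members, against 2.89% of all genes. The 8 were the 5, TRIM11, TRIM26 and TRIM34. None lay in the other direction, against 0.233% of all genes. The count was not repeated after rescaling, so it may owe part of its size to that shift. TRIM11 had 11.91, 14.16 and 12.78 FPKM in treated and 11.43, 9.55 and 7.39 FPKM in untreated KYSE30, KYSE180 and KYSE450 cells. Its log2 fold change was 0.29 ± 0.14 (SE; adjusted p = 0.552 by limma). In every line 13 of 37 members were higher when treated (35.1%, against 16.8% of all genes) and 6 were lower, against 19% of all genes.

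The 5 members with the most negative log2 fold changes were TRIM2, TRIM16L, TRIM29, TRIM45 and TRIM7, and none passed the threshold. TRIM2, known from mice as a ligase for neurofilament light chain in neurons, had 7.33, 2.95 and 3.56 FPKM in treated KYSE30, KYSE180 and KYSE450 cells, against 7.87, 8.86 and 3.75 FPKM in untreated cells. The difference came mainly from KYSE180, and the log2 fold change was -0.61 ± 0.24 (SE; adjusted p = 0.498 by limma). TRIM29, a RING-less member of squamous epithelium, had 6.41, 91.19 and 22.04 FPKM in treated and 6.33, 118.98 and 27.67 FPKM in untreated cells of the same lines. Its level followed the line far more than the treatment, and the log2 fold change was -0.38 ± 0.17 (SE; adjusted p = 0.526 by limma). TRIM45 had a log2 fold change of -0.27 ± 0.14 (SE) and TRIM7, first described as a partner of glycogenin, of -0.26 ± 0.17 (SE). The log2 ratios of TRIM7 were -0.19, 0.08 and -0.67 by line, and without KYSE450 its change was -0.056.

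The most abundant members by mean FPKM were TRIM16L, TRIM28, TRIM16, TRIM29 and TRIM27. TRIM16L had 161.61, 89.63 and 46.02 FPKM in treated and 197.8, 122.7 and 45.7 FPKM in untreated KYSE30, KYSE180 and KYSE450 cells, with a log2 fold change of -0.40 ± 0.12 (SE; adjusted p = 0.437 by limma). TRIM16, a RING-less stress response protein, had 110.24, 44.59 and 72.44 FPKM in treated and 123.49, 53.38 and 62.37 FPKM in untreated cells. Its log2 fold change was -0.22 ± 0.11 (SE; adjusted p = 0.555 by limma). TRIM16 and TRIM16L are copies of each other over part of their length, and no source used here says how reads common to both were assigned, so each of these levels is uncertain. TRIM28, the corepressor that KRAB zinc finger proteins recruit, had 89.27, 66.98 and 114.1 FPKM in treated and 91.51, 53.87 and 67.07 FPKM in untreated cells. TRIM28 had a log2 fold change of 0.19 ± 0.13 (SE; adjusted p = 0.632 by limma).

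By domain, all 3 called members were in the PRY-SPRY list, which makes 3 of 18 tested (16.7%, against 0.402% of all genes), with a median log2 fold change of 0.23. The 3 are TRIM22, TRIM21 and TRIM5, which were singled out with their response known, and TRIM22 passed the filter only through its treated libraries. The share therefore describes these 3 genes and is no test of the subfamily. Members without a RING domain were listed apart whatever their end domain. The 18 are therefore not all tested members with a PRY-SPRY domain. As deposited, 6 of these 18 and TRIM14 among the RING-less members were called. After rescaling, the 5 members without a RING domain (median -0.22, with TRIM14 at 1.63), the 3 tested with a PHD finger and bromodomain (-0.08), the 3 tested with NHL repeats (-0.02) and the 8 tested with other or no end domains (-0.07) held no call. All 8 members with a COS box, a class known from brain and muscle, failed the filter of the IFN-β experiment, and 6 of them were under 1 FPKM in each of its libraries. In the knockdown experiment 2 of the 8 were tested. TRIM9 had 2.76 and 1.92 FPKM in knockdown and vector control KYSE180 cells, and TRIM46 had 2.32 and 2.65 FPKM. MID1 and MID2, relatives with a COS box under other symbols, did pass the IFN-β filter, at 7.65 to 21.32 and 1.80 to 2.71 FPKM in treated and 10.75 to 15.39 and 1.59 to 3.46 FPKM in untreated cells. All 5 skeletal muscle markers were under 1 FPKM in every library. Of 5 neuron markers 3 were, while the summed neuron list was 4.06 to 24.2 FPKM in treated and 1.17 to 14.2 FPKM in untreated cells, mostly from MAP2 in KYSE30 (23.82 FPKM in treated and 13.84 FPKM in untreated cells). The part of these cell classes in the COS box levels was not tested.

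Summed over the family, the 5 took a larger share of the FPKM in treated cells. The family sum was 899, 837 and 866 FPKM in treated KYSE30, KYSE180 and KYSE450 cells, against 741, 777 and 476 FPKM in untreated cells. The 5 made up 20.7%, 18.3% and 28.7% of it in treated cells and 4.34%, 5.50% and 6.46% in untreated cells. The remaining members summed to 713, 684 and 618 FPKM in treated and 709, 734 and 446 FPKM in untreated cells. After rescaling, the family sum was 952, 771 and 755 in treated and 782, 703 and 587 in untreated KYSE30, KYSE180 and KYSE450 cells, so untreated KYSE450 had the lowest sum on either scale. In these bulk samples, fewer responding cells and less RNA per cell cannot be told apart.

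**Figure D4:**
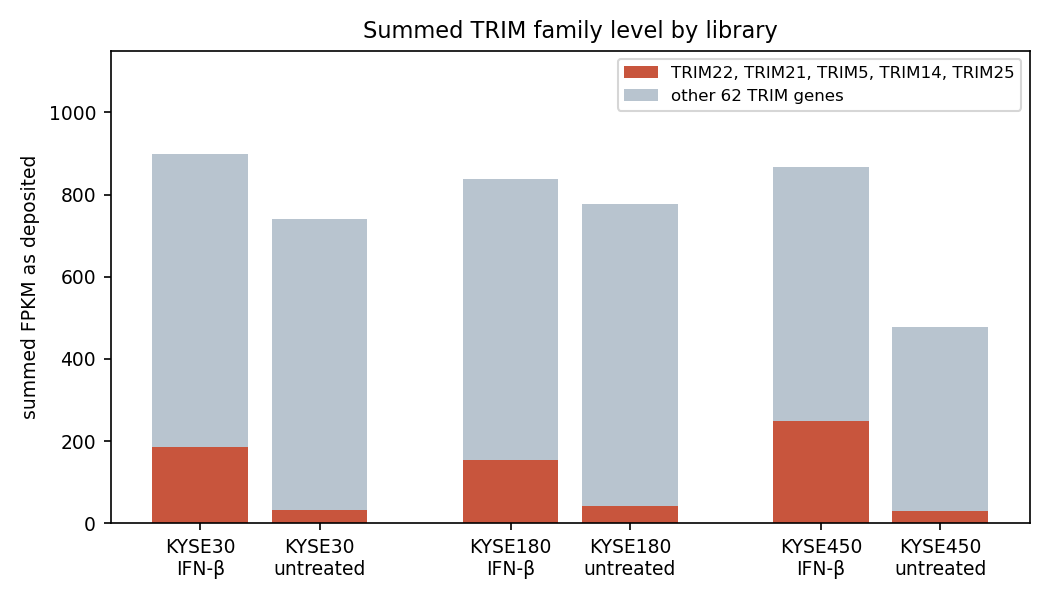
Summed FPKM as deposited of the 67 TRIM genes in each library of the IFN-β experiment, split into the 5 contrasted members (red) and the other 62 (grey), with the treated library left of the untreated one for each line. The red part is 153 to 248.73 FPKM in treated cells and 30.8 to 42.7 FPKM in untreated cells.

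Relatives and partners of the family were read from the same fit, and none passed the threshold after rescaling. PML, IFIH1 and ZC3HAV1 were called in the values as deposited, where the spread of most genes was the shared one. PML, a family member under another symbol that builds nuclear bodies, had 12.65, 7.35 and 11.67 FPKM in treated KYSE30, KYSE180 and KYSE450 cells and 2.94, 2.96 and 1.08 FPKM in untreated cells. Its log2 fold change of 1.72 ± 0.24 (SE) missed the threshold (adjusted p = 0.0700 by limma). MID1, a microtubule-bound relative, had -0.15 ± 0.25 (SE), and 0 of 3 tested relatives were called. Of 17 ubiquitin and ubiquitin-conjugating enzyme genes 0 were called, with a median log2 fold change of -0.01. UBE2L6, the conjugating enzyme for ISG15, had 142.45, 249.78 and 153.84 FPKM in treated and 1.52, 65.62 and 2.23 FPKM in untreated cells. KYSE180 had the high untreated value, and the log2 fold change was 4.32 ± 0.90 (SE; adjusted p = 0.392 by limma). RPS27A, a ribosomal protein fused to ubiquitin, had -0.56 ± 0.14 (SE).

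Of 22 tested targets and partners of antiviral TRIM proteins 0 were called, with a median of 0.16. DDX58, which encodes RIG-I and is the substrate of TRIM25, had 96.37, 12.94 and 178.58 FPKM in treated KYSE30, KYSE180 and KYSE450 cells, against 4.42, 3.25 and 2.36 FPKM in untreated cells. KYSE180 had the smallest difference, and the log2 fold change was 3.74 ± 0.78 (SE; adjusted p = 0.386 by limma). IFIH1, the RNA sensor MDA5, had 62.04, 14.87 and 53.21 FPKM in treated and 4.54, 4.38 and 1.19 FPKM in untreated cells, a log2 fold change of 3.12 ± 0.55 (SE; adjusted p = 0.247 by limma). ZC3HAV1, the antiviral protein ZAP that needs TRIM25, had 30.98, 26.86 and 32.83 FPKM in treated and 6.12, 16.86 and 11.3 FPKM in untreated cells, a log2 fold change of 1.28 ± 0.30 (SE; adjusted p = 0.356 by limma). Of 7 TRIM28 repressor partners 0 were called; CBX5, a heterochromatin protein, had -0.43 ± 0.17 (SE) and SETDB1, a histone methyltransferase, had -0.19 ± 0.11 (SE).

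The knockdown experiment asked what depends on IRF1-AS, which is transcribed opposite to IRF1, the gene of an interferon-responsive transcription factor. The annotated antisense gene C5orf56 had 3.04 FPKM in knockdown and 6.86 FPKM in vector control KYSE30 cells, and 0.948 and 1.08 FPKM in knockdown and vector control KYSE180 cells. The lower level was thus seen in KYSE30, and in KYSE180 both values were near 1 FPKM. No TRIM gene passed the test after knockdown: of 67 members 40 were tested by limma and 0 were called, against 0% of all 12799 genes in either direction. At an unadjusted p under 0.05 there were 4 of the 40 members, against 6.6% of all genes.

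None of the 5 contrasted members passed the test after knockdown. TRIM22 had 0.205 FPKM in knockdown and 1.08 FPKM in vector control KYSE30 cells, and was listed at 0 in knockdown and 0.194 FPKM in vector control KYSE180 cells. It did not pass the filter and was not tested. TRIM21 had 3.97 and 3.43 FPKM in knockdown and vector control KYSE30 cells and 5.33 and 6.60 FPKM in knockdown and vector control KYSE180 cells. Its log2 fold change was -0.07 ± 0.24 (SE). TRIM5 had 1.69 and 1.99 FPKM in knockdown and vector control KYSE30 cells and 2.56 and 2.76 FPKM in knockdown and vector control KYSE180 cells, a log2 fold change of -0.13 ± 0.24 (SE). TRIM14 had a fitted change of -0.24 ± 0.22 (SE), with log2 ratios of -0.52 in KYSE30 and 0.04 in KYSE180. TRIM25 had -0.08 ± 0.19 (SE), with -0.20 and 0.04. Both ratios, like that of TRIM21, differed in sign between the lines, and the adjusted p of the 4 tested members was between 0.868 and 0.979 by limma.

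TRIM29 was the member with the smallest p. It had 23.4 FPKM in knockdown and 35.4 FPKM in vector control KYSE30 cells, and 63.8 and 130 FPKM in knockdown and vector control KYSE180 cells. Both lines were lower after knockdown, but the arms overlapped because the lines differ, and the log2 fold change was -0.82 ± 0.20 (SE; adjusted p = 0.672 by limma). Of 8 squamous epithelial markers 0 were called in the same libraries, 3 were lower and 2 higher in both lines, and their summed level was 1015 to 6561 FPKM in knockdown and 791 to 8955 FPKM in vector control cells. Their part in the value of TRIM29 was not tested. TRIM56 had 7.92 and 1.27 FPKM in knockdown and vector control KYSE30 cells and 10.8 and 7.75 FPKM in knockdown and vector control KYSE180 cells. Its log2 fold change was 1.19 ± 0.40 (SE; adjusted p = 0.734 by limma), and KYSE30 carried most of it.

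TRIM16L had 50.9 and 107 FPKM in knockdown and vector control KYSE30 cells and 36.0 and 45.2 FPKM in knockdown and vector control KYSE180 cells (log2 fold change -0.71 ± 0.25, SE; adjusted p = 0.737 by limma). TRIM2 had 2.99 and 4.95 FPKM in knockdown and vector control KYSE30 cells and 4.44 and 7.51 FPKM in knockdown and vector control KYSE180 cells, with the same adjusted p and a log2 fold change of -0.63 ± 0.22 (SE). On the positive side, TRIM28 and TRIM16 followed TRIM56, with log2 fold changes of 0.32 ± 0.20 and 0.44 ± 0.28 (SE; adjusted p = 0.817 and 0.819 by limma). For TRIM16 the ratio was -0.01 in KYSE30 and 0.89 in KYSE180.

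TRIM8 moved in opposite directions in the lines. It had 8.60 FPKM in knockdown and 18.7 FPKM in vector control KYSE30 cells, and 18.1 and 8.86 FPKM in knockdown and vector control KYSE180 cells. With 1 library per arm and line the difference between the lines carries no test. At 2-fold or more, 2 of 39 members were higher in KYSE30 (TRIM39 and TRIM56; 5.13%, against 2.43% of all genes) and 2 lower (TRIM16L and TRIM8, against 7.21%). TRIM39 is a sum of 7 rows for alternate haplotypes, at 3.45 and 0.930 FPKM in knockdown and vector control KYSE30 cells. In KYSE180 that sum was 0.0406 and 0.0297 FPKM, so its level here is uncertain. In KYSE180, TRIM8 was the 1 of 38 that was higher (2.63%, against 3.08%), and TRIM29 and TRIM34 were lower (5.26%, against 4.7%). As deposited, knockdown values all lay above the vector control values for TRIM56 (9.54% of all genes) and all below for TRIM2 and TRIM27 (7.92% of all genes). TRIM27 is also a sum of 7 such rows, and they did not all go the same way. Its highest row in KYSE30 had 1.77 FPKM in knockdown and 3.39 FPKM in vector control cells. Its highest row in KYSE180, a different one, had 2.05 and 1.78 FPKM.

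**Figure D5:**
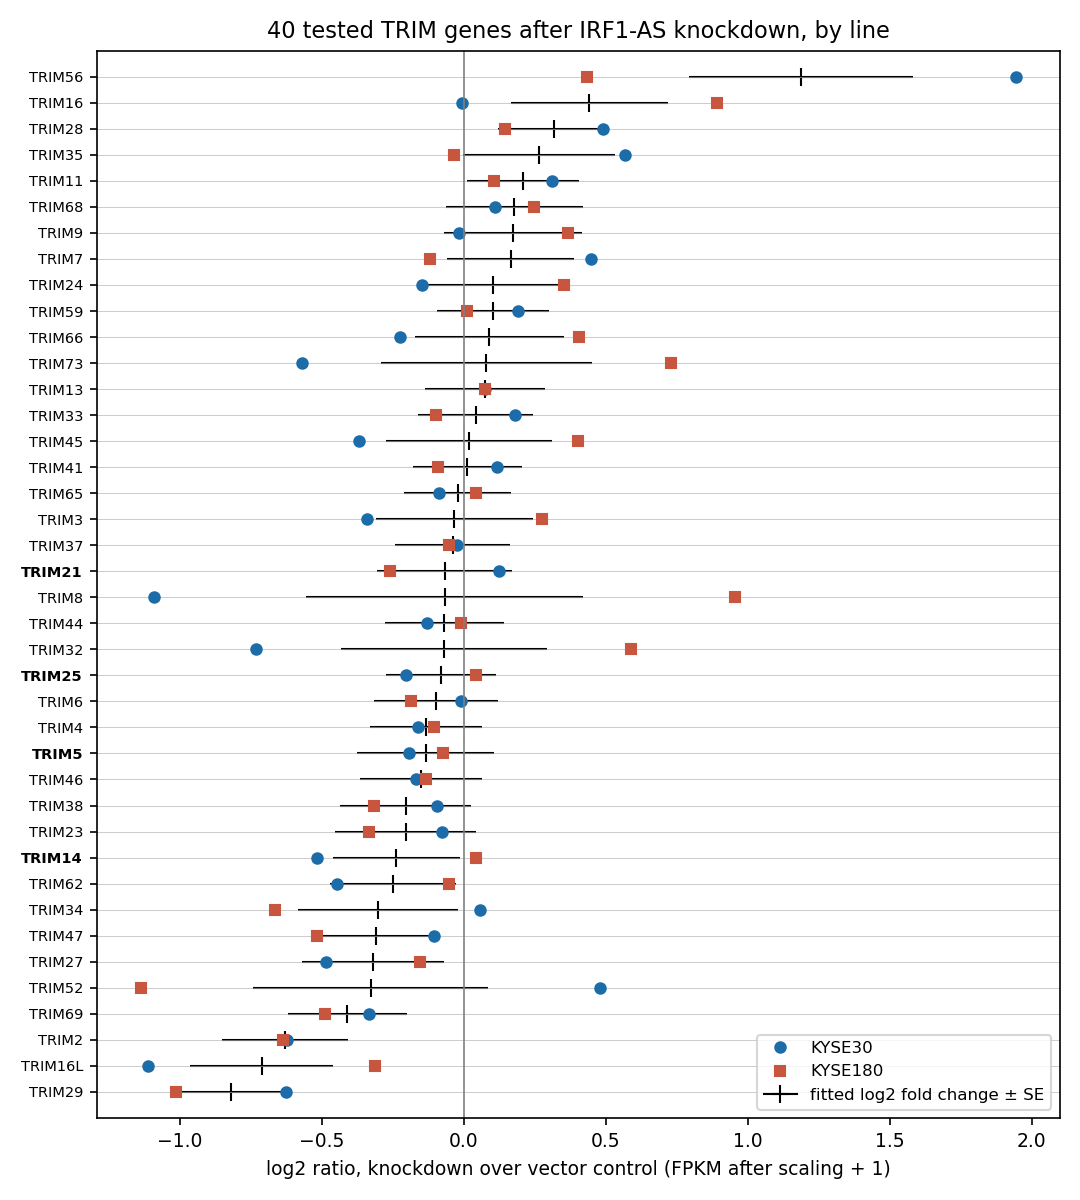
Log2 ratio of IRF1-AS knockdown over vector control, in rescaled FPKM + 1, for the 40 TRIM genes tested, with 1 symbol per cell line and the fitted log2 fold change ± SE in black. The fitted values of the contrasted members (bold; TRIM22 was not tested) lie between -0.24 and -0.07 and their line symbols between -0.52 and 0.12, and the KYSE30 and KYSE180 symbols of TRIM8 lie at -1.09 and 0.95.

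The median log2 fold change was -0.07 for the family and -0.01 for all genes after knockdown. No list of partner genes held a call. UBE2L6 had 3.48 FPKM in knockdown and 19.6 FPKM in vector control KYSE30 cells and 43.1 and 55.6 FPKM in knockdown and vector control KYSE180 cells, and UBE2W, a conjugating enzyme that works with TRIM5 and TRIM21, had a log2 fold change of -1.15 ± 0.29 (SE; adjusted p = 0.710 by limma). IKBKE and IFIH1 had log2 fold changes of -0.79 ± 0.21 and -0.76 ± 0.27 (SE), MID2 and MID1 of -0.50 ± 0.31 and -0.38 ± 0.21 (SE), and CHD3, a chromatin remodeller recruited by TRIM28, of 0.44 ± 0.19 (SE). Of the 10 interferon response genes 9 were lower after knockdown in both lines, with a median log2 fold change of -0.98, and 0 were called. Of the 40 TRIM genes tested 15 were lower in both lines, against 27.8% of all genes, and 6 were higher in both, against 24.6%.

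The knockdown tables hold the TRIM genes of the major histocompatibility complex in several rows each, for alternate haplotypes, and 114 rows were summed to 67 names. After summing, TRIM26 had 0.0118 to 0.718 FPKM in knockdown and 0.189 to 0.371 FPKM in vector control cells, while the IFN-β tables, which were normalized separately, list it at 12.4 to 35.17 FPKM. TRIM69 had 5.08 and 8.58 FPKM in knockdown and 6.40 and 12.5 FPKM in vector control cells, against 0.47 FPKM or less in the IFN-β tables. Such levels cannot be compared between the experiments, and the cause of the gaps was not tested.

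The lines also differed without treatment, in the family as in all genes. Of 34 members tested in both experiments, 7 were at least 2-fold higher in untreated KYSE180 than in untreated KYSE30 cells (19.6% of the 10055 genes tested in both) and 5 in vector control KYSE180 than in vector control KYSE30 cells (14.3% of these genes). TRIM29, TRIM68 and TRIM7 were in both counts, which is 3 of 7 and 3 of 5, against 47.2% and 64.8% for all genes. In the other direction, TRIM16 and TRIM47 were the 2 in untreated cells (9.24% of all genes) and were among 5 in vector control cells (11.4% of all genes). TRIM29 was 18.8-fold higher in untreated KYSE180 than in untreated KYSE30 cells and 3.68-fold higher in vector control KYSE180 than in vector control KYSE30 cells. TRIM47 was 0.372 and 0.203 times its KYSE30 level in untreated and vector control KYSE180 cells. Each ratio rests on 1 library per line and carries no test.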

How the data were processed

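TopHat, HTSeq and the hg38 build are listed in the submitters' processing notes; no source used here gives versions, strand setting or annotation. The authors deposited FPKM in 1 table per library, per the file headers, and the tables of the 2 experiments were normalized separately. Long non-coding transcripts of the IFN-β tables were summed per gene. FPKM hold no counts, so limma 3.58.1 in R 4.3.3 (trend and robust options) was fitted on log2(FPKM after median-of-ratios scaling + 1) over the whole table of each experiment, with the cell line as block, Benjamini-Hochberg adjustment and a threshold of 0.05. Fits were tested on simulated data. The members, lists and named genes were chosen with earlier results of these data known. Named were the 5 contrasted members, members called in either scaling, the 5 largest rises and falls, those with antiviral roles, the 5 most abundant, the 3 smallest p in each direction after knockdown and any with opposite 2-fold differences, plus the called or else the 2 most different genes of each list. TRIM44, TRIM68, TRIM3, TRIM39, TRIM47, TRIM9, TRIM46, TRIM78P, MAP2, MID2 and ZC3HAV1 were named after their values were seen. The values of 1 called gene of the interferon response list are not reported here. Replicate numbers mark the same cell line, per the labels; the correlation of deviations within a line was 0.841 to 0.910 after IFN-β and 0.843 after knockdown. Alternatives were scaling, pseudocount, filter, robust option, block, each line left out, the highest row per name and the promoter window. Promoters came from RefSeq, GRCh38.p14, and gene positions from GENCODE 29.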

Additional observations from a re-analysis of the deposited data

Results flagged for a closer look

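TRIM78P, a pseudogene row outside the family as defined here, was read as data that no comparison used. It had 0.72, 1.65 and 1.39 FPKM in IFN-β-treated KYSE30, KYSE180 and KYSE450 cells, against 0.5, 0.29 and 0.22 FPKM in untreated cells, so that the lowest treated value of 0.72 lay above the highest untreated value of 0.5. TRIM8 was noted because its lines went opposite ways after IRF1-AS knockdown, with log2 ratios of -1.09 in KYSE30 and 0.95 in KYSE180; this difference between lines was not tested.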

How the results depend on the processing

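After IFN-β, 3 members and 50 genes were called. As deposited the counts were 7 and 237, with pseudocount 0.1 they were 1 and 35, without a filter on low values 1 and 13, and leaving out a line gave 1 to 5 members and 33 to 82 genes. The fit as deposited used a fully shared spread for 10828 of 12429 genes. The replicate block, which is the cell line, carries the calls: with no replicate block 1 member and 13 genes were called. Upper-quartile scaling, an average of at least 5 FPKM and no robust option each left 3 members. No member was called lower in any of these. TRIM21 and TRIM5 lost their calls at pseudocount 0.1 (adjusted p = 0.0702 and 0.0541 by limma), without the filter and without the block. The log2 fold changes of TRIM3 and TRIM44 turned positive as deposited (0.076 and 0.12). Leaving out each line gave -0.16 to 0.22 for TRIM44 and -0.14 to 0.15 for TRIM68, which changed sign without KYSE180. After knockdown 0 members were called under every alternative; with 1 line left out no test is possible, because no residual degree of freedom remains, and the values are the ratios of the other line, which differ in sign between the lines for TRIM14 (-0.49 and 0.045) and TRIM25 (-0.18 and 0.045), for example. The promoter counts of 7 and 2 were 8 and 3 in the longer window. With FPKM alone, depth limits are unknown, and 2 or 3 lines per arm limit what can be called.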
